A study of Mus musculus with 44 samples.

Results

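The 8 genes F2r, Gprin3, Them4, Nectin3, Colq, Ctss, Hint3 and Acap2 were followed through mouse CD4 T cells of 3 genotypes at microRNA-150 (miR-150). They are 8 of the 55416 genes of the count table, and all 8 passed the filter on low counts that left 21873 genes for testing. They were chosen by their measured difference in counts between knock-in and wild-type cells in Th0 or Th1 cultures. Those differences are therefore given below as a description. The calls of these contrasts show only where the choice fell and how it moved, and test nothing about the 8 genes. The tests rest on the Treg cultures and on the cultures of knockout cells set against each other, whose libraries did not enter the choice. F2r, Gprin3, Them4 and Nectin3 were lower in knock-in cells and Colq, Ctss, Hint3 and Acap2 were higher.

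MicroRNAs are short RNAs that guide Argonaute proteins to messenger RNAs, mostly through pairing of their seed to the 3′ UTR, and lower the stability or translation of the target. miR-150 is abundant in mature lymphocytes and falls when T cells are activated. Its best-known target is Myb, a transcription factor gene of lymphocyte development.

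Naive CD4 T cells came by sorting from spleens of mice on the C57BL/6NTac background, either wild type (miR-150 WT), knockout (miR-150 KO) or knock-in (miR-150 KI). All cultures received plate-bound antibody to CD3 and soluble antibody to CD28 for 3 days. Th0 cultures received nothing else, Th1 cultures also IL-12 with an antibody blocking IL-4, and Treg cultures TGF-b1 and an antibody to interferon-gamma. The 44 libraries, 5 in a group and 4 in Th0 KI, are named here by culture, genotype and number (Treg KI 3). The sources used here do not give how the alleles were made, what drives the knock-in, or the age of the mice. The labels do not say that numbers mark separate mice, so p-values measure the spread between these libraries.

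Depth and identity of the libraries were checked first. Total counts ran from 60815821 to 137415965 per library. The T cell genes Cd3e and Cd4 stood at 80.3 to 265 and 169 to 697 CPM (counts scaled to a common library size) over the 44 libraries, and Foxp3, the lineage factor of regulatory T cells, at 47.7 to 596 CPM in Treg cultures against 0.362 to 4.35 CPM in the others. Transcripts of other cells were present after the sort. The 9 libraries numbered WT 4, KO 2 and KI 3 held 20.5 to 443 CPM of the CD8 T cell gene Cd8a, against 1.27 to 31.7 CPM in the other libraries. Of the 9, 8 were the highest of their group in Cd8a, and Th1 KO 2, at 21.3 CPM, was not. The 9 are called the libraries high in Cd8a below as a short name. The set was made by number and not by a cut in Cd8a, so a library with 31.7 CPM is not in it. In bulk RNA, fewer cells of a type and less RNA per cell cannot be told apart. Mir150 itself received 6 counts over 15 WT, 0 over 15 KO and 7 over 14 KI libraries, with at most 2 in a library. This lies under the floor of 3 counts used here for a gene near 0, so the poly(A) libraries do not check the genotypes.

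The sequences below give the mature miR-150-3p and the full seed matches found in the 3′ UTRs of these genes and of Myb. The table of RefSeq miRNAs (GRCm38.p6) gave the mature sequence of miR-150-3p (chr7:45121798-45121819, plus strand), printed with its seed, bases 2 to 8, in capitals. The longest annotated 3′ UTR of each gene (GENCODE M21, GRCm38) was searched on its sense strand only, the strand a miRNA can pair with. The motifs were TGTACCA, the match to the seed of miR-150-3p, and TTGGGAG, the match used for miR-150-5p, and no copies overlapped. Capitals in the sites mark TTGGGAG.
mmu-miR-150-3p: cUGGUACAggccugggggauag
F2r, chr13:95602822-95602828, minus strand: ggtatgccatcTTGGGAGgcagtaactat
F2r, chr13:95602354-95602360, minus strand: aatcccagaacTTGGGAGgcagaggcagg
Them4, chr3:94332515-94332521, plus strand: gctaaaataaaTTGGGAGattaatgttct
Myb, chr10:21125312-21125318, minus strand: ggaaaacttatTTGGGAGaattttgcatt
Myb, chr10:21125211-21125217, minus strand: tttttctttttTTGGGAGatttgtgttgt

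F2r held 2 copies of TTGGGAG in a 3′ UTR of 1930 bp, at bases 905 and 1373 after the stop codon. Them4 held 1 in 960 bp, at base 935, followed by an A, the form called an 8mer. The reference target Myb held 2 in 1238 bp, both followed by an A. No copy stood in the 3′ UTRs of Colq (1328 bp), Ctss (218 bp), Nectin3 (7390 bp), Gprin3 (5803 bp), Acap2 (3931 bp) or Hint3 (250 bp), and TGTACCA stood in none of the 8. Of 14528 genes tested with a 3′ UTR, 15.99% held TTGGGAG and 9.88% held TGTACCA. Among 3′ UTRs within 25% of the length of that of F2r 20.2% held TTGGGAG, and among those of the length of Them4 11.9%. For the long 3′ UTR of Nectin3 the share was 54.9% and for Gprin3 47.6%. A match is a string of letters in the annotation and was not tested as a binding site. Other forms of match, such as shorter ones, were not searched. A gene without a copy may therefore still hold a place where the seed can pair.

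The lower genes code for a receptor, its kind of signalling partner, an enzyme and an adhesion molecule. F2r (ENSMUSG00000048376; GRCm38 chromosome 13, 95601803 to 95618487, minus strand) encodes PAR1, the receptor that thrombin activates by cutting its outer end. In Th0 cultures F2r stood at 26.5, 32.6, 43.1, 40.3 and 24.5 CPM in WT 1 to 5. The 4 Th0 KI libraries held 14.9, 13.1, 15.1 and 14.6 CPM, and the 5 Th0 KO libraries 26.1 to 35.3 CPM. Every KI library lay below every WT and KO library of the same culture, and WT and KO overlapped.

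In Th1 cultures F2r held 15.2, 23.8, 18.6, 37.9 and 20.8 CPM in WT and 9.20, 11.4, 10.4, 8.03 and 7.46 CPM in KI. The KI libraries again lay below all WT libraries. In KO, 4 of the 5 libraries held 11.3 to 14.9 CPM, below all WT libraries, and Th1 KO 2 held 26.8 CPM. In Treg cultures F2r was at 40.1, 40.05, 34.9, 59.4 and 53.9 CPM in WT and 32.4, 33.2, 26.2, 37.6 and 24.6 CPM in KI, and these overlapped. The log2 fold change of KI against WT was -1.21 ± 0.23 (SE) in Th0, -1.32 ± 0.22 in Th1 and -0.57 ± 0.21 in Treg. Without Th1 WT 4 the Th1 value was -1.08.

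Gprin3 (ENSMUSG00000045441; chromosome 6, 59347226 to 59426294, minus strand) belongs to a family of proteins that bind G protein alpha subunits. In Th1 cultures Gprin3 held 32.5, 90.6, 43.1, 53.8 and 117.4 CPM in WT, 32.4 to 58.4 CPM in KO, and 21.1, 18.3, 19.7, 40.9 and 35.7 CPM in KI. Th1 KI 4 and 5 reached into the WT range and the other 3 lay below it. In Th0 cultures the means were 102.2 ± 27.8 CPM (SD, n = 5) in WT, 94.5 ± 4.17 CPM (SD, n = 5) in KO and 63.8 ± 10.7 CPM (SD, n = 4) in KI. For KI against WT this gave a log2 fold change of -0.68 ± 0.26 in Th0, -1.31 ± 0.24 in Th1 and -0.17 ± 0.24 in Treg. Without Th1 WT 5 the Th1 value was -1.02.

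Them4 (ENSMUSG00000028145; chromosome 3, 94310089 to 94332540, plus strand) encodes a mitochondrial acyl-CoA thioesterase that was also described as a binding partner of the kinase AKT. In Th1 cultures Them4 held 3.57, 6.28, 3.78, 5.11 and 7.21 CPM in WT and 2.81, 2.41, 1.35, 2.48 and 1.72 CPM in KI, which did not overlap. The Th1 KO libraries ran from 2.52 to 5.34 CPM and overlapped both. In Th0 cultures Th0 KI 1, at 6.16 CPM, lay among the WT libraries, which ran from 4.41 to 7.14 CPM, and the other KI libraries held 2.51, 4.38 and 3.65 CPM. On the log2 scale KI differed from WT by -0.55 ± 0.26 in Th0 and -1.27 ± 0.25 in Th1. It was -0.81 in Th0 without Th0 KI 1.

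Nectin3 (ENSMUSG00000022656; chromosome 16, 46387706 to 46498525, minus strand) encodes an immunoglobulin-like adhesion molecule that binds other nectins on neighbouring cells. It had the lowest levels of the 8 genes per length. In Th1 cultures Nectin3 held 0.565, 1.19, 0.288, 0.335 and 1.12 CPM in WT and 0.0743, 0.0989, 0.0770, 0.139 and 0.0832 CPM in KI. The KI values rest on 8, 12, 7, 16 and 8 counts, above the floor of 3 counts. The KO libraries held 0.339, 0.287, 0.280, 0.121 and 0.527 CPM. All KI libraries lay below all WT libraries, and Th1 KO 4 lay below Th1 KI 4. In Th0 cultures Th0 KI 4, at 1.36 CPM, lay within the WT range of 0.894 to 2.05 CPM. The log2 fold change of KI against WT was -1.23 ± 0.52 in Th0, -2.86 ± 0.53 in Th1 and -1.61 ± 0.49 in Treg, and -1.88 in Th0 without Th0 KI 4.

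**Figure D1:**
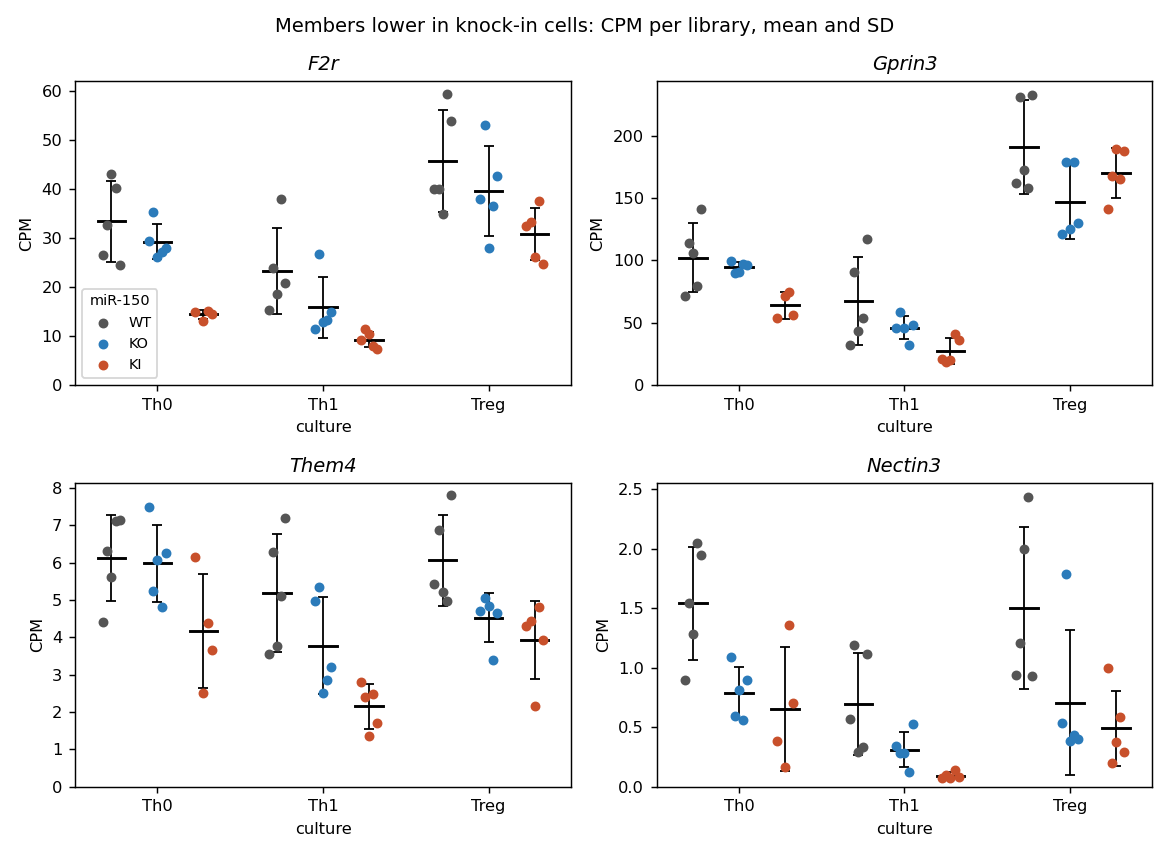
Level in CPM (y axis, from 0) of F2r, Gprin3, Them4 and Nectin3 in each library, by culture (x axis) and genotype (grey WT, blue KO, red KI), with mean and SD as bars. For F2r the 4 Th0 KI libraries sit between 13.1 and 15.1 CPM, below all Th0 WT libraries, while in Treg cultures KI and WT overlap.

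The higher genes code for a collagen tail, a protease, a hydrolase and a regulator of small GTPases. Colq (ENSMUSG00000057606; chromosome 14, 31523082 to 31591343, minus strand) encodes the collagen-like tail that anchors acetylcholinesterase at the neuromuscular junction. In Th0 cultures Colq held 5.88, 3.52, 3.06, 2.99 and 4.24 CPM in WT and 9.33, 14.3, 6.77 and 9.87 CPM in KI, with KO at 3.93 to 6.09 CPM. In Th1 cultures it held 5.45, 3.02, 4.06, 3.36 and 3.23 CPM in WT and 8.09, 8.36, 12.96, 7.60 and 8.63 CPM in KI, with KO at 3.35 to 6.94 CPM. In both cultures every KI library lay above every WT and KO library. Library 3 was the highest KI library in each. The log2 fold change of KI against WT was 1.36 ± 0.25 in Th0 and 1.255 ± 0.24 in Th1, and 1.05 in Th0 without the 9 libraries high in Cd8a.

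Ctss (ENSMUSG00000038642; chromosome 3, 95526786 to 95556403, plus strand) encodes cathepsin S, a lysosomal protease that trims the invariant chain of MHC class II in antigen-presenting cells. In Th0 cultures Ctss held 136.6, 117.4, 50.9, 67.8 and 118.9 CPM in WT, 76.4, 57.7, 129.2, 133.4 and 114.6 CPM in KO, and 286, 290.0, 153 and 187 CPM in KI. All Th0 KI libraries lay above all WT and KO libraries. In Th1 cultures Ctss ran from 60.2 to 121.3 CPM in WT and from 108.9 to 123.6 CPM in KI 1, 2, 4 and 5, with Th1 KI 3 at 210.2 CPM. Ctss had a log2 fold change of KI against WT of 1.22 ± 0.28 in Th0 and 0.63 ± 0.27 in Th1, and 0.32 in Th1 without the 9 libraries high in Cd8a.

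Because Ctss is a gene of antigen-presenting cells, the markers of those cells stand beside it. The summed level of 10 B cell markers ran from 179 to 1454 CPM in Th0 WT and from 287 to 2101 CPM in Th0 KI, and from 89.0 to 740 and 158 to 1523 CPM in Th1. In Treg cultures it ran from 245 to 626 CPM in WT and from 562 to 1336 CPM in KI. None of the 10 passed the test for KI against WT in a culture by edgeR. Of all genes only 0.512% passed in Th0, 0.0274% in Th1 and 0% in Treg, so this says little about the markers. None of the 10 was at 0 in a whole group. Their median log2 fold change was 0.84 in Th0, 0.82 in Th1 and 1.83 in Treg. The 13 myeloid and dendritic cell markers summed to 7.37 to 16.4 CPM in Th0 WT and 9.35 to 27.5 CPM in Th0 KI, with S100a9 at 0 in all Th0 KI libraries, and none of the 12 tested passed in any of the 3 cultures. Their median log2 fold change for KI against WT was -0.25 in Th0, -0.47 in Th1 and -0.25 in Treg. After removal of the group means, Ctss had r = 0.21 with the B cell sum, 0.43 with the myeloid sum and 0.54 with the sum of mitochondrial transcripts, over 44 libraries that share cultures and sorts. The part of these cells in the level of Ctss was not tested.

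Hint3 (ENSMUSG00000019791; chromosome 10, 30608141 to 30629632, minus strand) encodes a nucleotide hydrolase of the histidine triad family. In Th0 cultures Hint3 held 9.60, 8.26, 9.74, 6.13 and 8.73 CPM in WT, 7.88, 10.3, 11.5, 11.04 and 10.8 CPM in KO, and 21.7, 17.1, 11.6 and 14.8 CPM in KI. The KI libraries lay above all others, with Th0 KI 4 close to the highest KO library. In Th1 cultures KI, at 10.1 to 14.3 CPM, overlapped WT, at 7.67 to 10.8 CPM, and KO, at 9.77 to 15.02 CPM. Hint3 had a log2 fold change of KI against WT of 0.94 ± 0.16 in Th0 and 0.37 ± 0.15 in Th1. Without Th0 KI 1 the Th0 value was 0.75.

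Acap2 (ENSMUSG00000049076; chromosome 16, 31092412 to 31201245, minus strand) encodes a GTPase-activating protein of ARF6, a small GTPase of membrane traffic. Its range was the smallest of the 8. In Th1 cultures Acap2 held 132.2, 98.5, 111.7, 82.8 and 94.0 CPM in WT, 126.7, 106.7, 147, 164 and 142.4 CPM in KO, and 162, 166, 193, 129.5 and 155 CPM in KI. Of the KI libraries only Th1 KI 4 lay within the WT range. The log2 fold change of KI against WT was 0.25 ± 0.13 in Th0, 0.63 ± 0.12 in Th1 and 0.02 ± 0.12 in Treg. The Th0 value was 0.10 without Th0 KI 3. Without the 9 libraries high in Cd8a, Acap2 had 0.049 in Th0 and 0.49 in Th1.

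**Figure D2:**
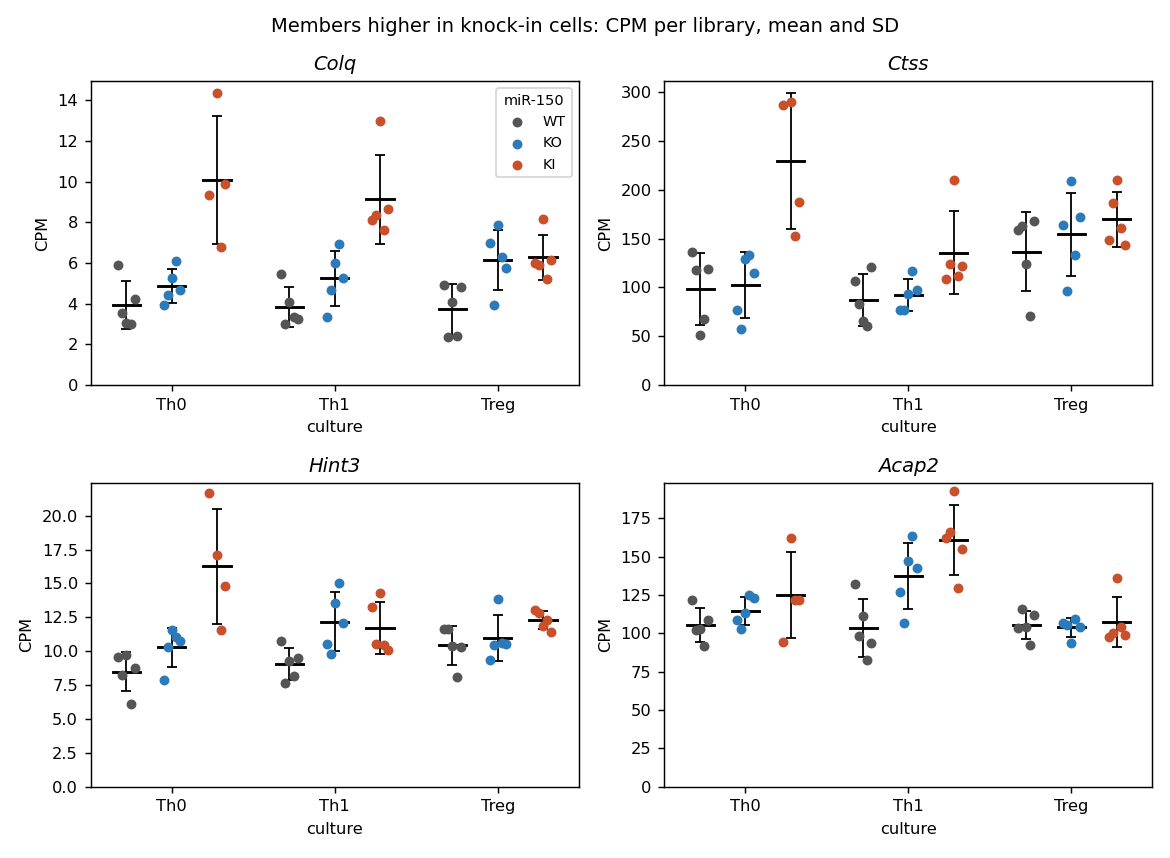
Level in CPM (y axis, from 0) of Colq, Ctss, Hint3 and Acap2 in each library, by culture (x axis) and genotype (grey WT, blue KO, red KI), with mean and SD as bars. The 4 Th0 KI libraries of Ctss sit between 153 and 290.0 CPM, above all Th0 WT and KO libraries, and the 3 genotypes overlap in Treg cultures.

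A gene was called where edgeR's quasi-likelihood test gave a p, adjusted over all genes tested by the Benjamini-Hochberg method, under 0.05. In Th0 the contrast that chose the genes called 0.512% of 21873 genes, among them F2r, Colq, Ctss and Hint3. In Th1 it called 6 genes (0.0274%), which were F2r, Colq, Nectin3, Gprin3, Them4 and Acap2. These calls are the choice itself, so nothing is read from them. The last of the 8 inside the threshold was Ctss in Th0, at an adjusted p of 0.0457 by edgeR, and the next named gene outside was Ccdc162, at 0.0501 with a log2 fold change of 0.94. In Th1 they were Acap2, at 0.0367, and St7, at 0.114 with -0.52. DESeq2 called the same 4 and the same 6 genes, with 649 and 443 genes called in all. Ctss in Th0 missed the threshold with DESeq2's size factors, with no filter and with the replicate block, and Acap2 in Th1 with no filter.

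These calls also moved with single libraries. The fits reuse the libraries that chose the genes, so nothing is read from calls that stayed. None of the 8 was called in Th0 without Th0 KI 1, Th0 KI 3 or Th0 WT 4, and Hint3 alone was without Th0 WT 2 or 3. In Th1, F2r alone was called without Th1 KI 1, 2 or 3 or Th1 WT 2 or 5. Without the 9 libraries high in Cd8a, F2r was called in Th0 and F2r and Nectin3 in Th1. When the fit held only the libraries of both groups compared, none was called in either culture, while the log2 fold change of F2r was -1.21 in Th0 and -1.33 in Th1 and that of Colq 1.35 in Th0.

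The Treg cultures gave the same comparison in libraries that the choice did not use. None of the 8 genes was called for KI against WT there by edgeR, where no gene was called at all (0 of 21873 genes, 0%). Adjusted p-values ran from 0.510 to 0.984. At an unadjusted p under 0.05, Colq, Nectin3, F2r and Them4 passed, 4 of 8, as did 1758 of all genes (8.04%). DESeq2 called 5 genes, none of the 8.

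The signs in Treg cultures were those of Th0 and Th1 for 8 of 8 genes, though Acap2 was near 0 and turned negative under other settings (-0.13 without the libraries high in Cd8a). The share of all genes that kept their sign was not counted, so nothing is read from the 8 of 8. The log2 fold change of KI against WT was 0.75 ± 0.24 for Colq, -0.63 ± 0.24 for Them4, 0.31 ± 0.26 for Ctss and 0.24 ± 0.15 for Hint3. The median size of the change over the 8 genes was 0.44 on the log2 scale, against 0.22 over all genes. Same-numbered libraries deviated together from their group means, with correlations of Treg with Th0 of 0.244 to 0.587 in WT and 0.300 to 0.512 in KI and of Treg with Th1 of 0.149 to 0.443 and 0.158 to 0.482, so the Treg libraries are not fully independent of those that chose the genes.

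Libraries did not overlap between KI and WT in Treg cultures for 2 of 8 genes, Colq and Them4, against 1.15% of all genes. Colq held 4.94, 2.38, 4.06, 2.42 and 4.80 CPM in Treg WT and 5.99, 5.90, 8.14, 5.20 and 6.16 CPM in Treg KI. Them4 held 5.44, 6.87, 5.23, 4.98 and 7.82 CPM in Treg WT and 4.31, 4.44, 2.17, 4.82 and 3.92 CPM in Treg KI. For both genes the lowest library of the higher group lay close to the highest of the other. Nectin3 had the change of greatest size among the 8, from 1.501 ± 0.679 CPM in WT to 0.490 ± 0.317 CPM in KI (SD, n = 5 each), and Treg KI 1, at 0.995 CPM, overlapped WT. Whether the change in Treg differs from that in Th0 or Th1 was not tested, since the latter chose the genes.

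The knockout cells stand beside the knock-in cells in the next comparison. Both are set against the same WT libraries, and in Th0 and Th1 those WT libraries also chose the genes, so the values are given side by side only. For KO against WT in Th0, Nectin3 had -0.96 ± 0.48, Colq 0.31 ± 0.23, Hint3 0.28 ± 0.15, F2r -0.19 ± 0.21, Acap2 0.12 ± 0.12, Gprin3 -0.11 ± 0.24, Ctss 0.06 ± 0.26 and Them4 -0.03 ± 0.24 on the log2 scale. Over all genes edgeR called 0 for KO against WT in Th0 and 0 in Th1 (0%). By edgeR, 1048 and 2000 genes had an unadjusted p under 0.05. DESeq2 called 3 and 19 genes. The libraries did not overlap for 0.635% of all genes in Th0 and for 1.58% in Th1. The 8 genes are not counted against these shares.

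In Th1 cultures KO against WT gave -0.55 ± 0.21 for F2r, -0.55 ± 0.24 for Gprin3, -0.46 ± 0.24 for Them4 and -1.16 ± 0.49 for Nectin3. It gave 0.46 ± 0.23 for Colq, 0.08 ± 0.26 for Ctss, 0.43 ± 0.15 for Hint3 and 0.40 ± 0.12 for Acap2. The values of KI against the same WT libraries, given above, were -1.32 for F2r, -1.31 for Gprin3, 0.63 for Acap2 and 0.37 for Hint3.

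In Treg cultures, whose WT libraries the choice did not use, KO against WT gave 0.73 ± 0.24 for Colq, -1.08 ± 0.48 for Nectin3, -0.42 ± 0.24 for Them4 and -0.38 ± 0.24 for Gprin3. The other 4 lay between -0.21 and 0.18. None of the 8 was among the 37 genes called (0.169%), and Colq and Nectin3, 2 of 8, passed at an unadjusted p under 0.05 with 10.1% of all genes. Adjusted p-values ran from 0.236 to 0.982 by edgeR. The libraries overlapped for all 8 genes, and did not for 1.12% of all genes. Treg KO 2 held 1.79 CPM of Nectin3, against 0.381 to 0.532 CPM in the other 4 KO libraries.

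**Figure D3:**
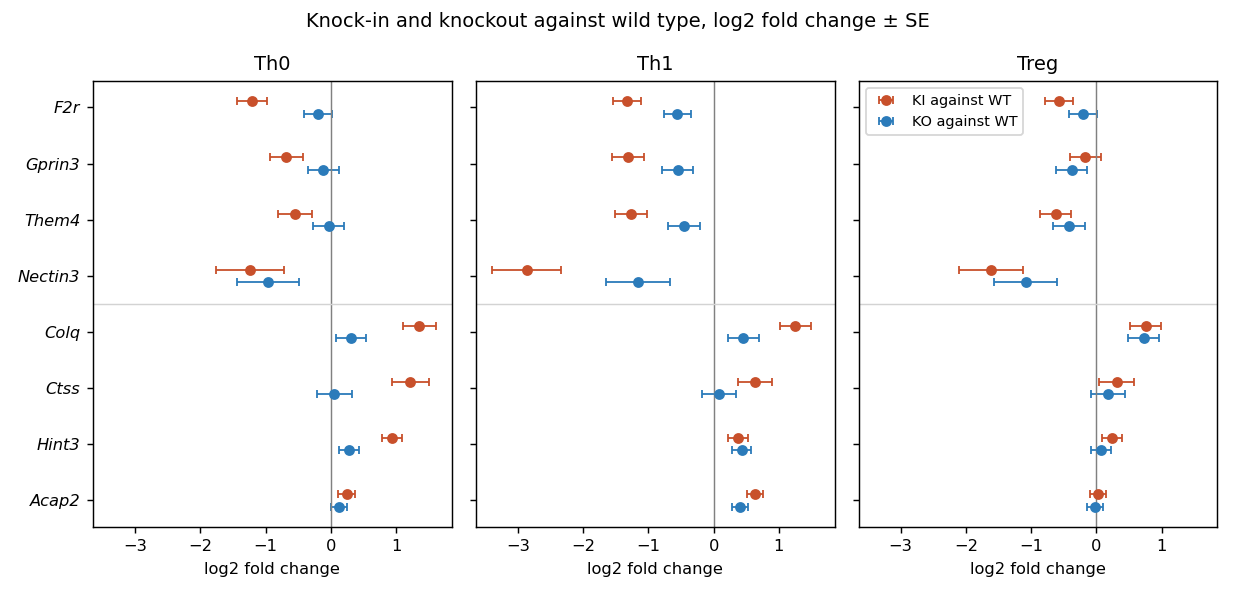
Log2 fold change against WT (x axis) with SE as bars for the 8 genes, KI in red and KO in blue, 1 panel per culture; both use the same WT libraries. In Th0 the KO points of F2r, Gprin3, Them4 and Ctss lie between -0.19 and 0.06, while the KI points of F2r and Ctss lie at -1.21 and 1.22.

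Knock-in and knockout cells were also set against each other. In Th0, as a description, KI against KO gave -1.02 ± 0.23 for F2r, 1.04 ± 0.25 for Colq, 1.16 ± 0.28 for Ctss and 0.66 ± 0.16 for Hint3. In Th1 it gave -0.77 ± 0.21 for F2r, -0.76 ± 0.24 for Gprin3, -0.81 ± 0.24 for Them4, -1.70 ± 0.52 for Nectin3 and 0.80 ± 0.24 for Colq. Hint3 in Th1 stood at -0.06 ± 0.15. In Treg cultures, where the test applies, the 8 genes lay between -0.53 (Nectin3) and 0.21 (Gprin3). None was among the 5 genes called (0.0229%), none passed at an unadjusted p under 0.05, and adjusted p-values ran from 0.721 to 0.997 by edgeR. The libraries overlapped for all 8, and did not for 2.26% of all genes. Without Treg KO 2 the value of Nectin3 turned to 0.18. Colq stood at 6.16 ± 1.48 CPM in Treg KO and 6.28 ± 1.10 CPM in Treg KI (SD, n = 5 each), a difference of 0.03 ± 0.23 on the log2 scale, which does not show that they were equal.

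Myb, the reference target, followed another order. In Treg cultures Myb held 96.7, 83.03, 128.7, 77.3 and 85.0 CPM in WT, 233, 136.04, 153, 326 and 161 CPM in KO, and 94.5, 79.04, 84.2, 88.4 and 87.3 CPM in KI. All KO libraries lay above all WT and KI libraries, and WT and KI overlapped. Myb rose in Treg KO against WT by 1.10 ± 0.24 (SE) on the log2 scale with an adjusted p of 0.0286 by edgeR. For Treg KI against KO it had -1.22 ± 0.24 and an adjusted p of 0.0343 by edgeR. Without Treg KO 4 the first was 0.84 and the second -0.97, and neither passed. The first was also lost without Treg WT 1, 2, 4 or 5 or Treg KO 1 or 5, and the second without Treg KO 1 or 3 or any 1 of the 5 KI libraries. None of the 8 genes had the order of Myb in all 3 cultures.

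The effect of culture on the 8 genes was tested in knockout cells, whose libraries did not choose them. F2r and Gprin3 were lower in Th1 than in Th0 cultures, and both, with Ctss, were higher in Treg than in Th1 cultures. Gprin3 held 99.2, 89.6, 90.7, 97.0 and 95.9 CPM in Th0 KO, 46.1, 58.4, 45.4, 32.4 and 48.1 CPM in Th1 KO, and 121.4, 179, 124.8, 179 and 130.3 CPM in Treg KO. These 3 groups did not overlap. Its log2 fold change was -1.04 ± 0.24 for Th1 against Th0 (adjusted p = 0.00484), 0.64 ± 0.24 for Treg against Th0 (adjusted p = 0.0384) and 1.67 ± 0.25 for Treg against Th1 (adjusted p = 2.56e-06), by edgeR.

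F2r held 29.4, 35.3, 26.1, 27.2 and 28.1 CPM in Th0 KO and 11.3, 26.8, 12.9, 13.3 and 14.9 CPM in Th1 KO, with Th1 KO 2 reaching into the Th0 range. In Treg KO it held 37.9, 53.03, 28.01, 36.5 and 42.6 CPM, above all Th1 KO libraries. F2r fell by 0.88 on the log2 scale from Th0 to Th1 (SE 0.21, adjusted p = 0.00617) and rose from Th1 to Treg by 1.32 ± 0.22 (adjusted p = 1.21e-05), by edgeR. For Treg against Th0 it had 0.44 ± 0.21 and an adjusted p of 0.111 by edgeR.

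For Th1 against Th0 in KO, F2r and Gprin3 were the 2 of 8 called, both lower, where 9.51% of all genes were called. Same-numbered Th0 and Th1 libraries of KO behaved as pairs. With the number as a replicate block, Them4 (-0.70, adjusted p = 0.00191) and Nectin3 (-1.43, adjusted p = 0.0352) were called too, by edgeR, for 4 of 8. The block raised the calls over all 21873 genes as well, from 2080 to 3984. Unpaired, Them4 and Nectin3 had -0.66 ± 0.24 and -1.34 ± 0.49, with an adjusted p of 0.0764 and 0.0762 by edgeR. DESeq2 also called F2r, Gprin3, Them4 and Nectin3, among 2742 of 21873 genes. Without the 9 libraries high in Cd8a the 4 called were F2r, Gprin3, Them4 and Acap2, among 2901 of 21968 genes.

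For Treg against Th1 in KO, 3 genes rose (F2r, Gprin3 and Ctss) and 1 fell (Acap2), 4 of 8 where 30% of all genes were called. Ctss rose by 0.74 ± 0.27 (adjusted p = 0.0309 by edgeR), from 92.3 ± 16.7 to 155 ± 42.4 CPM, and Acap2 had -0.40 ± 0.12 (adjusted p = 0.0127 by edgeR), from 137.3 ± 21.6 to 103.95 ± 6.02 CPM (SD, n = 5 each). In the unpaired fit Ctss missed the threshold without any of Th1 KO 1, 2 or 3 or Treg KO 1, 3 or 5, with adjusted p-values of 0.0519 to 0.126 by edgeR. Acap2 missed it without Th1 KO 4 (-0.33, adjusted p = 0.0554 by edgeR). Same-numbered Th1 and Treg libraries of KO were read as pairs. With the number as a replicate block, Ctss had 0.72 (adjusted p = 0.00103) and Acap2 -0.39 (adjusted p = 0.0013), by edgeR. The block called the same 4 of the 8 genes, and 8027 genes in all.

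For Treg against Th0 in KO, Gprin3 was the 1 of 8 called, where 33% of all genes were. That call was lost without any library but Treg KO 1 or 3, and without the 9 libraries high in Cd8a (0.52, adjusted p = 0.145 by edgeR). Ctss had 0.60 ± 0.27 (adjusted p = 0.0820 by edgeR) and passed without Treg KO 2 (0.70, adjusted p = 0.0400 by edgeR). Colq and Hint3 passed in none of the 3 culture comparisons.

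In WT and KI cells, whose Th0 and Th1 libraries chose the genes, the culture effects are a description. For Gprin3, Treg against Th1 gave 1.503 ± 0.25 in WT and 2.65 ± 0.26 in KI. For F2r it gave 0.97 ± 0.21 and 1.73 ± 0.22. Nectin3 stood at 1.10 ± 0.48 in WT and 2.35 ± 0.53 in KI, and Them4 at 0.23 ± 0.24 and 0.87 ± 0.24. Colq had -0.04 ± 0.23 in WT and -0.54 ± 0.23 in KI.

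**Figure D4:**
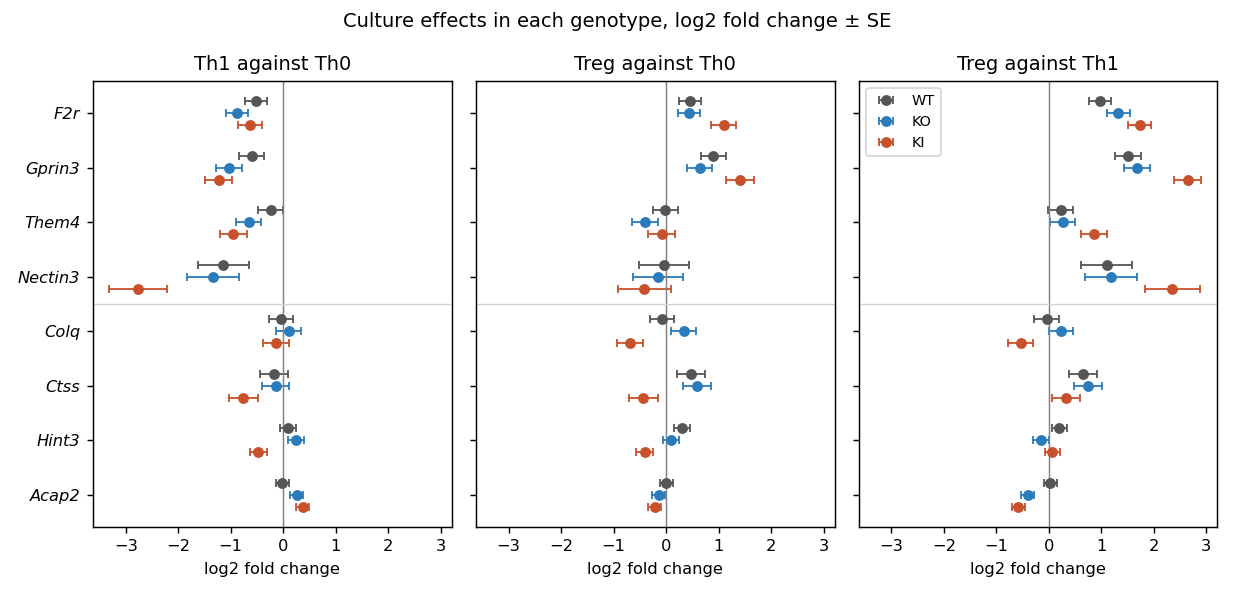
Log2 fold change between cultures (x axis) with SE as bars for the 8 genes in WT (grey), KO (blue) and KI (red), 1 panel per pair of cultures; only the KO values were tested. For Gprin3 the change for Treg against Th1 lies at 1.503 in WT, 1.67 in KO and 2.65 in KI.

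The order of the 9 groups was read from their means. F2r and Gprin3 were highest in Treg WT and lowest in Th1 KI, with a ratio of 4.91 for F2r and 7.04 for Gprin3. Nectin3 and Them4 were highest in Th0 WT and lowest in Th1 KI, with a ratio of 16.3 for Nectin3 and 2.84 for Them4. Colq, Ctss and Hint3 were highest in Th0 KI, and lowest in Treg WT, Th1 WT and Th0 WT, with ratios of 2.71, 2.63 and 1.92. Acap2 was highest in Th1 KI and lowest in Th1 WT, with a ratio of 1.55. Most neighbours in each order could not be told apart. Of the 8 neighbouring pairs per gene, none differed by more than the larger SD for Ctss and Hint3, 1 for F2r, Colq, Them4 and Acap2, 2 for Nectin3 and 3 for Gprin3. The only neighbours whose libraries did not overlap were Th0 KI and Th1 KI for F2r.

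Levels were set against those of relatives per length, as CPM per kb of annotated exon, by group mean. F2r led the protease-activated receptors with a median over the 9 groups of 8.76 CPM per kb, against 2.53 for F2rl3, 1.52 for F2rl1 and 0.507 for F2rl2. The median of Ctss, at 99.7, lay above those of the cathepsin genes Ctsz at 71.4, Ctsd at 67.7 and Ctsb at 33.7. That median includes the KI groups, for which Ctss was chosen as high. By group Ctss ran from 64.2 to 169, Ctsz from 47.9 to 102.5 and Ctsd from 61.9 to 86.2. These ranges overlapped, and Ctss did not lead in every group. Gprin3, at 11.3, was the main gene of its family, with Gprin1 and Gprin2 at 0.00503 and 0.0115. Acap2, at 15.95, lay between Acap1 at 38.96 and Acap3 at 3.61.

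Hint3 had a median of 1.99 CPM per kb, far under Hint1 at 166. Nectin3, at 0.0548, was as scarce as Nectin1 at 0.0541, with Nectin2 at 0.127 and Nectin4 at 0.138. The median of Nectin3 includes the KI groups, for which it was chosen as low, and by group it ran from 0.00741 to 0.121. The receptors Tigit, Cd96 and Cd226 of the related ligand Pvr stood at 41.9, 21.98 and 12.4. Colq, at 1.38, lay above Ache, the gene of its partner acetylcholinesterase, at 0.0785. Them4 stood at 1.13, under its relatives Acot13 at 15.7 and Them6 at 4.48.

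Lists of related genes were read beside each of the 8 (protease-activated receptors and their G proteins, acetylcholine genes, cathepsins with their inhibitors and the invariant chain, nectins and their receptors, GPRIN and Go/Gi genes, acyl-CoA thioesterases and AKT kinases, ARF GTPase-activating proteins, histidine triad proteins) and for reported miR-150 targets. Together they held 120 measured entries, of which a few genes stood in more than 1 list. For KI against WT, 2 were called in Th0 and none in Th1 or Treg. Cst3, which encodes the cathepsin inhibitor cystatin C, rose in Th0 KI from 34.2 ± 13.9 (SD, n = 5) to 84.3 ± 36.02 CPM (SD, n = 4), by 1.30 ± 0.29 on the log2 scale with an adjusted p of 0.0431 by edgeR. Acot13, a thioesterase gene, rose from 8.44 ± 0.824 to 15.2 ± 5.38 CPM, by 0.84 ± 0.19 with an adjusted p of 0.0457 by edgeR. Both came from the contrast that chose the 8 genes. Cst3 did not pass without Th0 KI 1 or 3 or without any of Th0 WT 2 to 5, and nor did Acot13.

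For KO against WT, none was called in Th0 or Th1. In Treg, Myb rose and the ARF GTPase-activating gene Agap1, chosen after its values were seen, fell. Agap1 ran from 1.08 to 42.3 CPM in Treg WT and from 0.467 to 2.16 CPM in Treg KO, and edgeR gave it a log2 change of -3.40 ± 0.67 (adjusted p = 0.0158). Without Treg WT 5 it was -2.43 and did not pass, and nor did it without Treg KO 1, 3 or 4. The 18 genes of the cathepsin list had a median log2 fold change for KI against WT of 0.39, 0.36 and 0.16 in Th0, Th1 and Treg, against 0.02, 0.01 and 0.00 over all genes. The 14 genes of the receptor list had -0.19, -0.09 and 0.12. The 17 reported miR-150 targets had 0.08 in each culture for KI against WT, and 0.12, 0.19 and 0.03 for KO against WT.

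The 8 genes lie on 6 chromosomes apart from the pairs Ctss and Them4, 1217 kb apart on chromosome 3, and Nectin3 and Acap2, 15297 kb apart on chromosome 16. Of the 65 tested genes that start within 250 kb of any of the 8 genes, none was called for KI or KO against WT in a culture. Over all genes the calls by edgeR for KI were 0.512% in Th0, 0.0274% in Th1 and 0% in Treg. For KO they were 0% in Th0, 0% in Th1 and 0.169% in Treg. With shares this low, the lack of calls among the 65 shows little. Nectin3 had no such neighbour. For the 22 neighbours of Ctss the median log2 fold change of KI against WT was 0.19 in Th0, 0.19 in Th1 and 0.20 in Treg. For the 5 neighbours of F2r it was -0.27, -0.42 and -0.07.

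Genes whose pattern was most like that of each of the 8 were found by Pearson's r of log2 CPM over the 44 libraries among 9669 genes. The libraries share cultures, genotypes and sorts, so r describes a shared pattern only. For F2r they were Osbpl3 (r = 0.89) and Thtpa (0.85). For Gprin3 they were Map2k6 (0.92), Cpd (0.92) and Atad2 (0.91), and for Them4 Hmgb1 (0.91), Fancb (0.89) and BC055324 (0.88). Nectin3 was most like Spred1 (0.84), Nudt4 (0.83) and Coq3 (0.83).

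Ctss was most like Psme2b (0.89), Oas1b (0.86) and Oas1c (0.86), and Colq like Phf7 (0.79), Laptm4a (0.78) and Sp140 (0.77). Acap2 was most like Csnk1g1 (0.81), Xpnpep3 (0.81) and Zbtb11 (0.80), and Hint3 like Rfesd (0.81), Rps7 (0.81) and Ddx50 (0.80). Among the 8 themselves, after removal of the group means, Colq had r = 0.67 with Ctss, 0.57 with Acap2 and 0.55 with Hint3. Them4 and Acap2 had r = -0.69, Colq and Them4 -0.59 and F2r and Ctss -0.49. With Colq, Nectin3 had r = -0.58, F2r -0.41 and Gprin3 -0.37. So libraries of a group that were high in Colq tended to be high in the other higher genes and low in the lower genes.

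Other measures moved with some of the 8 within groups. F2r had r = 0.41 and Them4 r = -0.45 with the level of Cd8a over the 44 libraries after removal of the group means. Them4 had r = 0.49 with the sum of mitochondrial transcripts, and Colq had 0.41 and Nectin3 -0.39 with the myeloid sum. The 8 markers of CD8 T and NK cells summed to 62.4 to 290.1 CPM in Th0 WT, 114 to 163 CPM in Th0 KO and 162 to 339 CPM in Th0 KI, with a median log2 fold change of 0.67 for KI against WT in Th0, -0.04 in Th1 and -0.46 in Treg. None of the 8 markers was at 0, and none was called, where few or no genes were called at all. The 6 platelet markers had -0.55, -1.44 and -0.0038, and summed to at most 21.3 CPM in a library. With the total counts, r ran from -0.22 (Them4) to 0.17 (Colq) over the 8 genes. The part of these measures in the levels of F2r, Them4, Colq and Nectin3 was not tested, beyond the values without the 9 libraries high in Cd8a given above.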

How the data were processed

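RNA of 44 cultures was sequenced as stranded poly(A) libraries with paired reads of 150 bases, per the labels' protocols. The authors deposited raw counts per gene in 2 lane columns per library; per the file headers, STAR aligned the trimmed reads. The genome build GRCh38 is named per the submitters' processing notes although the gene identifiers are of the mouse. The sources used here do not give the counter, annotation or strand setting. The 2 lanes of each library were summed, 1492 rows without a gene name kept their identifiers, and total counts were 60815821 to 137415965 per library. The deposited normalized table was not used.

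The 8 genes, the gene lists and the marker lists were chosen with earlier results of these data known. One edgeR 4.0.16 quasi-likelihood model (R 4.3.3, limma 3.58.1) of the 9 groups used TMM factors and the filter by group, which left 21873 genes. Benjamini-Hochberg adjustment ran over all of them at a threshold of 0.05. Levels are CPM with TMM factors (counts scaled to a common library size), the SE is the size of the log2 fold change divided by the root of the F statistic, and the script was tested on simulated data. Gene positions and exon lengths came from GENCODE M21 on GRCm38. The motif for miR-150-5p was entered as 7 letters, and its mature sequence is named only. Text names the 8 genes, Mir150, Myb, called genes of each list (at most 3, mean log2 CPM of at least 1) and the 3 genes most like each member (mean log2 CPM of at least 2), of which 1 is not reported here.

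Alternatives were DESeq2 1.42.0, its size factors in edgeR, no filter, only both groups compared, the library number as a block, each library left out, and no libraries numbered WT 4, KO 2 and KI 3. The number was read as a pairing where every same-numbered correlation of deviations from group means was over 0.1. In KO cells these were 0.398 to 0.753 for Th0 with Th1 and 0.157 to 0.414 for Th1 with Treg, which were read as pairs, and -0.0281 at the lowest for Th0 with Treg, which was not. Between genotypes the means ran from -0.26 to 0.17, so numbers did not pair genotypes. No 2 libraries of a group agreed within sampling noise (86 pairs, lowest median chi-square per gene 4.03).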

Additional observations from a re-analysis of the deposited data

Results flagged for a closer look

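In 7 of the 72 combinations of gene and group, 1 library stood apart from the others by Dixon's test, which chance gives in about 1 of 20. F2r in Th1 KO 2 was at 26.8 CPM, against 11.3 to 14.9 CPM in the other 4 libraries. Nectin3 in Treg KO 2 was at 1.79 CPM, against 0.381 to 0.532 CPM. The libraries numbered KI 3 were the high ones for Colq in Th1, at 12.96 CPM against 7.60 to 8.63 CPM, for Ctss in Th1, at 210.2 CPM against 108.9 to 123.6 CPM, and for Acap2 in Treg, at 135.9 CPM against 97.5 to 103.97 CPM. Treg KO 2, Th1 KI 3 and Treg KI 3 were the highest of their groups in Cd8a, and the part of that difference was not tested. Th1 KO 2 was not, at 21.3 CPM of Cd8a against up to 31.7 CPM in its group. Them4 was low in Treg KO 4, at 3.40 CPM against 4.66 to 5.05 CPM. Hint3 was high in Treg KO 3, at 13.8 CPM against 9.32 to 10.6 CPM.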

How the results depend on the processing

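For Th1 against Th0 in KO, 4 of the 8 genes were called by DESeq2, with the replicate block and when the 9 libraries high in Cd8a were left out, in place of 2. Over all genes these fits called 2742, 3984 and 2901, in place of 2080. For Treg against Th0 in KO, 0 were called with DESeq2's size factors, with no filter and without those libraries, and 0 to 1 with a library left out. With the replicate block 4 were called (F2r, Ctss and Them4 added, where numbers did not pair), among 8835 of 21873 genes in place of 7214. Beside these calls, the block ended those of Ctss and Acot13 for KI against WT in Th0, and no other call of the genes named. When the 9 libraries high in Cd8a were left out, the log2 fold change turned for Colq (-0.20), Ctss (-0.073), Nectin3 (0.26), Them4 (0.00079) and Acap2 (-0.034) in Treg KI against KO, for Them4 in Th0 KO against WT (0.064), for Acap2 in Treg KI against WT (-0.13) and for Hint3 in Treg KO against WT (-0.015). Acap2 in Treg KI against WT also turned with DESeq2 (-0.0034), its size factors (-0.0035) and only both groups (-0.0081). With 1 library left out, other values turned, most of them near 0 but not Nectin3 in Treg KI against KO, at -0.53. For Treg KI against KO they ran from -0.086 to 0.14 for Colq, -0.96 to 0.18 for Nectin3 and -0.044 to 0.082 for Acap2. For KO against WT, Ctss ran from -0.11 to 0.20 in Th0, -0.031 to 0.22 in Th1 and -0.0097 to 0.28 in Treg, Gprin3 from -0.22 to 0.033 and Them4 from -0.13 to 0.035 in Th0, and Hint3 from -0.048 to 0.11 in Treg. Acap2 ran from -0.090 to 0.056 in Treg KI against WT, Colq from -0.017 to 0.24 in Th1 against Th0 and Hint3 from -0.029 to 0.12 in Treg against Th0 in KO. Over the comparisons with a test, 1024 alternative values of the 8 genes held 18 lost calls, 12 gained ones and 35 turned directions, while 959 kept direction and call. For KI against WT in Th0 and Th1, which chose the genes, 74 of 156 calls were lost and none turned. The genes called for KI against WT in Th0, 0.512% by edgeR, were 649 by DESeq2, 22 with its size factors, 4 with no filter, 20 with the block, 1 without the libraries high in Cd8a, 0 with only both groups, and 0 (without Th0 KI 1 or 3) to 1003 (without Th0 KI 4) with a library left out. In Th1 they were 6 by edgeR, 443 by DESeq2 and 1 to 283 with a library left out. For KO against WT in Treg they were 37 by edgeR, 166 by DESeq2, 0 with only both groups, 226 without the libraries high in Cd8a and 2 to 195 with a library left out, and for KI against KO in Treg 5, 59, 3, 13 and 0 to 5. The cause was not tested. Depth limited Nectin3 most, at 7 to 16 counts per library in Th1 KI.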
